A study of Mus musculus with 23 samples.

Results

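The 9 genes described here, Lcn2, Lrg1, Cebpd, Il1r1, Socs3, Osmr, Il6ra, Steap4 and Serpina3n, belong to the acute phase response or to the cytokine signalling that drives it. They were taken by gene symbol from the count tables of 3 mouse tissues, which list 20628 genes for muscle, 26702 for fat and 25623 for hypothalamus. All 9 were found and passed the filter on low counts in each tissue. In hypothalamus Lcn2 and Steap4 passed it only through the oxaliplatin libraries. Their counts in vehicle hypothalamus libraries were 2 to 9 and 4 to 14. They were chosen by their differences between oxaliplatin and vehicle in these same libraries. Their differences between the arms are therefore given as a description, and the adjusted p-values printed with them support nothing further.

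The mice were C57BL/6, with no other allele or transgene named in the labels. One arm received oxaliplatin, a platinum chemotherapy drug, at 10 mg/kg, and the other received vehicle. Tissues were taken after 8 weeks of treatment. Total RNA was sequenced from tibialis anterior muscle (5 oxaliplatin and 4 vehicle libraries), subcutaneous white fat (4 and 3) and hypothalamus (4 and 3). Age, sex and dosing schedule are not given in the labels, which also do not say whether mice bearing the same number in different tissues were the same animals.

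In the acute phase response, interleukin 1 and cytokines of the interleukin 6 family act on their receptors, and the transcription factors NF-kB, STAT3 and members of the C/EBP family then raise the transcription of secreted defence proteins. Il1r1 encodes the signalling receptor for interleukin 1, Il6ra the interleukin 6 receptor and Osmr the oncostatin M receptor. Cebpd encodes the transcription factor C/EBP delta, and Socs3 encodes the feedback inhibitor of STAT3 signalling. Among the products, Lcn2 encodes lipocalin 2, which binds bacterial iron carriers, Lrg1 encodes a secreted glycoprotein that modifies TGF-beta signalling in endothelial cells, Serpina3n encodes a protease inhibitor made by reactive astrocytes among other cells, and Steap4 encodes a metalloreductase abundant in fat. In the brain, endothelial cells carry the interleukin 1 receptor and relay blood-borne cytokine signals.

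The starts of 3 genes are shown because Lcn2 and Lrg1 had the largest differences between the arms in hypothalamus, while Socs3, a standard STAT3 target, had almost none there. Each run comes from the 250 bases before the RefSeq start site (build GRCm38.p6), printed 5′ to 3′ on the minus strand and stopped where GENCODE M21 annotates a UTR. Capitals mark letters that match 1 of 4 motifs on either strand: TTCNNNGAA for STAT, GGGNNNNNCC for NF-kB, TTNNGNAA for C/EBP and ACANNNTGT for the glucocorticoid receptor. The genes lie at chr2:32384633-32388252 (Lcn2), chr17:56119678-56122001 (Lrg1) and chr11:117966079-117970047 (Socs3), all on the minus strand, in GENCODE M21, and Cebpd lies at chr16:15887286-15891031 on the plus strand. The Lcn2 run is chr2:32387798-32387989, of which 139 bases lie in exons of other Lcn2 transcripts in GENCODE. The Lrg1 run is chr17:56122002-56122196 and holds no annotated exon of the gene. The Socs3 run is chr11:117969367-117969616, with 77 bases in an exon of another Socs3 transcript.
Lcn2: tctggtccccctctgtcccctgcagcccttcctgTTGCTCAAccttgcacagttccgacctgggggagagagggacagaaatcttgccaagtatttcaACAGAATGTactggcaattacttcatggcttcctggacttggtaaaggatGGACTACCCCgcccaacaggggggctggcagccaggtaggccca
Lrg1: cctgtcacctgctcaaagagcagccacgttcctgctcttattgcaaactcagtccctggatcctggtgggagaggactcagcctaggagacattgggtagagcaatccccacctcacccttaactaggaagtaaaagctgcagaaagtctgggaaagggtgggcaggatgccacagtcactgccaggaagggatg
Socs3: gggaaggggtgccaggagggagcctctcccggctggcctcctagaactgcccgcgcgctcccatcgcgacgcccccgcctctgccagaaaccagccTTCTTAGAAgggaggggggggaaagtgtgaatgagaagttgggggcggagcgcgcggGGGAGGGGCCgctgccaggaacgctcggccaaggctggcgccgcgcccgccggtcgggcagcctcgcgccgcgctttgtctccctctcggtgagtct

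From its 5′ end, the Lcn2 run held 1 match each to the C/EBP, glucocorticoid receptor and NF-kB letters, in that order. It held none to the STAT letters. The C/EBP and NF-kB matches lay on the opposite strand. The Socs3 run held the STAT letters and then the NF-kB letters, while the printed Lrg1 run held none of the 4. Over the full 250 bases, Lrg1 had 1 NF-kB match, which lies in the 55 bases annotated as UTR. Of the 8 genes with a RefSeq window, Socs3 and Steap4 were those with STAT letters. Among 32536 different windows of that length, 7.04% held the STAT letters, 46.0% the NF-kB letters, 36.8% the C/EBP letters and 5.82% the glucocorticoid receptor letters. A match describes the letters, not binding. Cebpd had no entry.

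Library totals ran from 16458600 to 32151400 estimated counts, and every oxaliplatin hypothalamus library (at most 26426400) was shallower than every vehicle one (at least 27345700). Muscle libraries were made with another kit than fat and hypothalamus libraries, so muscle is set beside the other tissues without a test of level. Muscle mouse 5 is oxaliplatin by its title and by the group sizes in the series' text but vehicle in its treatment label. It is counted here as the library labelled oxaliplatin by title, and the log2 difference of each of the 9 genes in muscle is also given without it and with it set to vehicle. Vehicle muscle mice 3 and 4 had summed neutrophil markers of 146 and 130 CPM against 1.10 to 4.72 CPM in the other 7 muscle libraries. Vehicle fat mouse 4 carried 135631 CPM of muscle fibre markers against 15.8 to 3326 CPM in the other fat libraries. Levels are in CPM, counts scaled to a library total of 1000000 with TMM factors within a tissue. Adipocyte markers summed to 16648 to 24172 CPM in fat, muscle fibre markers to 152436 to 200053 CPM in muscle and neuron markers to 3192 to 4220 CPM in hypothalamus, so each tissue carried its own markers.

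In vehicle mice all 9 genes were higher in fat than in hypothalamus, by amounts that differed widely between them. This contrast, vehicle fat against vehicle hypothalamus (3 libraries each, same kit), was not itself used to choose the genes and was tested with edgeR. Its libraries are, however, the vehicle arms of the contrasts that chose them. Choosing genes by differences from vehicle can favour low vehicle values in hypothalamus. The counts and p-values of this contrast are therefore a description too. Lcn2 and Steap4 passed the filter here only through the fat libraries. All 9 were called higher in fat at an adjusted p under 0.05, where 37.5% of the 19564 genes tested were called higher in fat, and in all 9 the groups did not overlap, as in 40.3% of genes tested. The median log2 difference of the 9 was 3.83, beside 0.07 over all genes. Steap4 differed most, at 410 ± 29.2 CPM in fat and 0.305 ± 0.190 CPM in hypothalamus (SD, n = 3 each, scaled jointly), a log2 difference of 10.37 ± 0.38 (SE). Lrg1 followed at 243 ± 51.1 CPM in fat and 0.419 to 0.999 CPM in hypothalamus, with a log2 difference of 8.59 ± 0.39. Osmr (4.14 ± 0.14), Lcn2 (3.92 ± 1.17), Il1r1 (3.83 ± 0.22), Cebpd (3.35 ± 0.43) and Il6ra (3.28 ± 0.12) lay together in the middle. Serpina3n (1.99 ± 0.19) and Socs3 (1.67 ± 0.32) were the nearest to even between the tissues. Lcn2 was the least certain of them. Its log2 difference was 2.13 without fat vehicle mouse 2 and 4.96 without hypothalamus vehicle mouse 2. It had an adjusted p of 0.0211 by edgeR, which was 0.0807 without hypothalamus vehicle mouse 1, 0.0811 without mouse 4 and 0.0528 with limma-voom. Without vehicle fat mouse 4, which carries muscle fibre RNA, the edgeR adjusted p of Lcn2 was 0.0114 and the other 8 also kept their calls.

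Per kilobase of exon, which allows genes to be ranked, vehicle fat was led by Lrg1 (191 ± 36.6 CPM per kb), Steap4 (144 ± 8.92) and Serpina3n (83.2 ± 16.3), and Lcn2 was last at 1.05 ± 1.29 (SD, n = 3). The 5 genes between them ran from Cebpd at 12.6 ± 6.45 through Il6ra at 9.05 ± 0.240, Il1r1 at 7.67 ± 1.61 and Osmr at 5.26 ± 0.743 to Socs3 at 5.00 ± 2.17, and neighbours in this order differed by less than the sum of their SDs, except Il1r1 and Osmr. In vehicle hypothalamus Serpina3n stood far above the rest at 18.4 ± 2.84 CPM per kb. Socs3 (1.38 ± 0.0647) and Cebpd (1.09 ± 0.242) came next and did not differ beyond their SDs. Il6ra (0.817 ± 0.0878), Il1r1 (0.474 ± 0.0772), Lrg1 (0.432 ± 0.224), Osmr (0.262 ± 0.0187) and Steap4 (0.0941 ± 0.0586) followed, and Lcn2 was again last at 0.0592 ± 0.0557. Under oxaliplatin the hypothalamus order became Serpina3n (20.1 ± 5.38), Cebpd (6.36 ± 2.26), Lrg1 (3.76 ± 0.432) and Lcn2 (2.41 ± 1.47), with Socs3 the fifth at 1.29 ± 0.370 (n = 4). Vehicle muscle was led by Steap4 (17.0 ± 4.77) and Lrg1 (14.3 ± 2.09), whose SDs overlapped, and the other 7 lay between 0.337 and 1.78 CPM per kb.

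**Figure D1:**
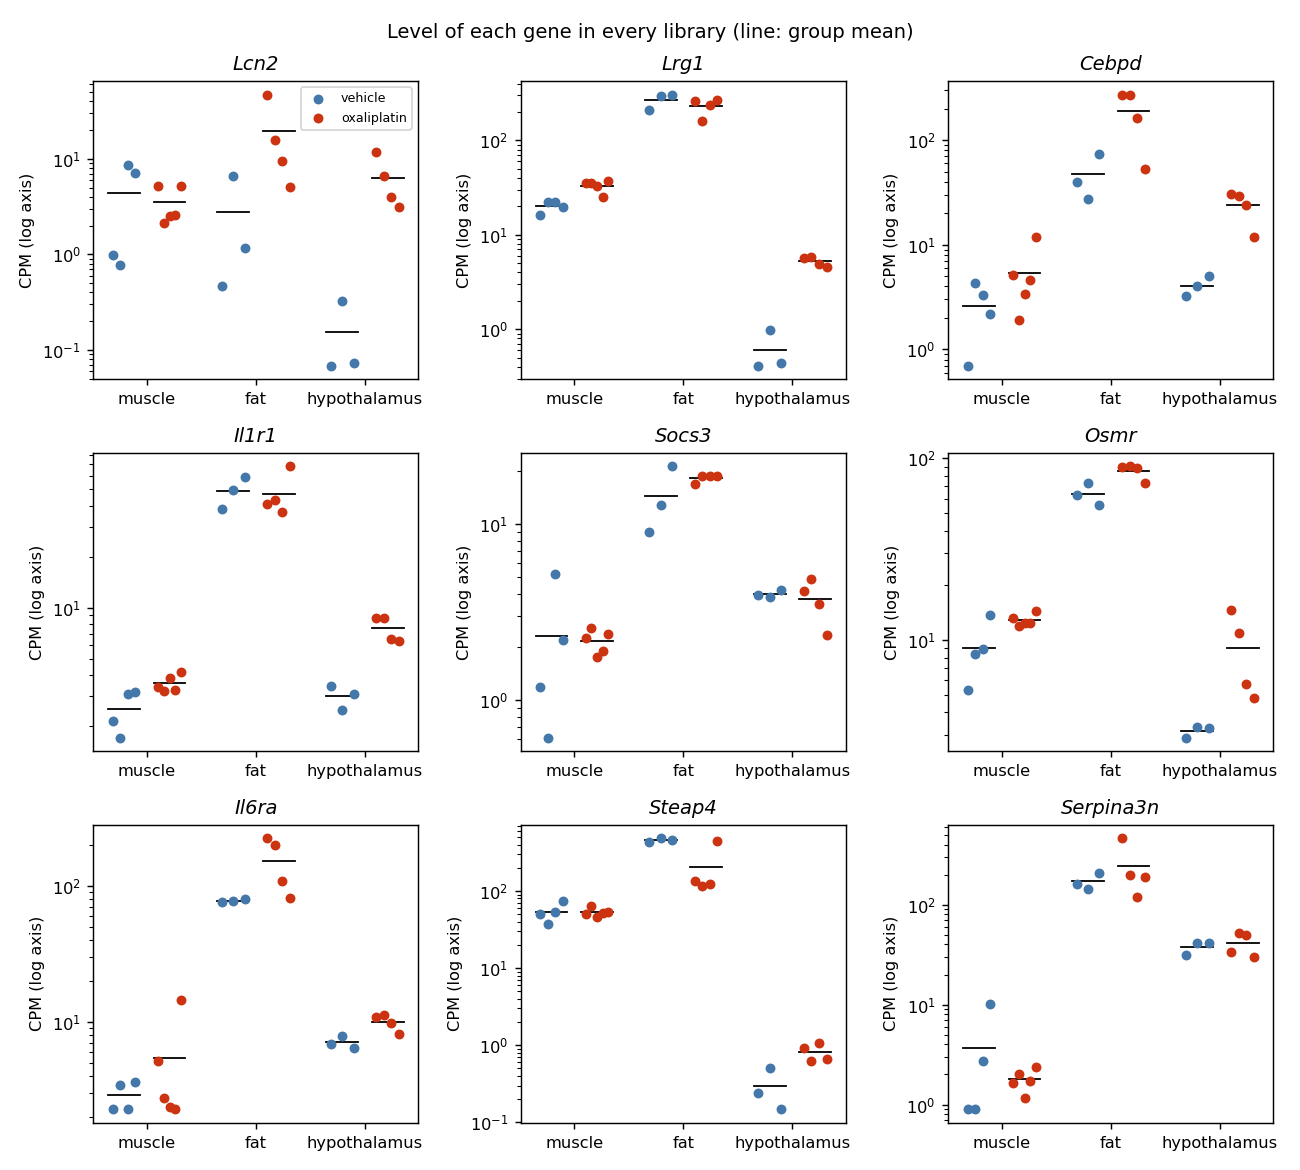
CPM (log axis) of each of the 9 genes in every library, by tissue, with vehicle in blue, oxaliplatin in red and a line at the group mean. In hypothalamus the oxaliplatin points of Lcn2, Lrg1, Cebpd and Il1r1 all lie above the vehicle points, while those of Socs3 and Serpina3n overlap them.

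Hypothalamus held the widest separation between the arms. Lcn2, Lrg1, Cebpd and Il1r1 were higher under oxaliplatin and met an adjusted p under 0.05 in edgeR, 4 of 9 genes, where 0.148% of the 18941 genes tested were called (28, all higher). In 7 of 9 the groups did not overlap, with the oxaliplatin arm higher, as in 5.58% of genes tested. Because this contrast chose the genes, nothing is read from those counts. Of the 9 log2 differences 8 were above 0, with a median of 1.45 beside 0.01 over all genes. In whole tissue such as this, more cells of a type and more RNA per cell cannot be told apart.

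Lcn2 was nearly silent in vehicle hypothalamus and present in every oxaliplatin library. It stood at 11.7, 6.54, 3.96 and 3.13 CPM in oxaliplatin mice 2, 3, 4 and 5, and at 0.0684, 0.324 and 0.0738 CPM in vehicle mice 1, 2 and 4. The lowest treated library was thus well above the highest vehicle one. In estimated counts this is 628 over 4 libraries against 13 over 3, a depth-adjusted ratio of 40.8 with a 95% interval of 23.7 to 77.1 that covers counting error only. The log2 difference was 5.31 ± 0.71 (SE; edgeR adjusted p = 0.0458). Vehicle mouse 2 supplied 9 of the 13 vehicle counts, so the size of the fold rests on very few reads.

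Lrg1 was likewise low in every vehicle library. Its levels were 5.72, 5.88, 4.96 and 4.61 CPM in oxaliplatin mice 2 to 5 and 0.410, 0.972 and 0.443 CPM in vehicle mice 1, 2 and 4. No treated library came near the vehicle range. The means were 5.29 ± 0.608 (SD, n = 4) and 0.608 ± 0.315 CPM (SD, n = 3), a log2 difference of 3.11 ± 0.31 (edgeR adjusted p = 0.0074), resting on 526 and 51 counts.

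Cebpd, the transcription factor of the set, reached 30.3, 29.4, 23.8 and 11.8 CPM in oxaliplatin mice 2 to 5, against 3.22, 4.00 and 5.02 CPM in vehicle mice 1, 2 and 4. Mouse 5 was the lowest treated library, though still above the vehicle range. The log2 difference was 2.55 ± 0.34 (edgeR adjusted p = 0.0483).

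The receptors followed with smaller differences. Il1r1 was at 8.66, 8.64, 6.54 and 6.34 CPM in oxaliplatin mice 2 to 5 and at 3.45, 2.48 and 3.10 CPM in vehicle mice 1, 2 and 4, a log2 difference of 1.32 ± 0.19 (edgeR adjusted p = 0.0400). Osmr was at 14.6, 10.9, 5.73 and 4.81 CPM against 2.91, 3.31 and 3.29 CPM, with a log2 difference of 1.51 ± 0.38 (edgeR adjusted p = 0.308). Its groups did not overlap, with treated mice 2 and 3 well above mice 4 and 5. Il6ra was at 8.15 to 11.2 CPM against 6.39 to 7.88 CPM, also without overlap, with a log2 difference of 0.50 ± 0.15 (edgeR adjusted p = 0.350).

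Steap4 was higher from a very low base, at 0.617 to 1.08 CPM against 0.148 to 0.504 CPM (82 counts against 25; log2 difference 1.45 ± 0.47; edgeR adjusted p = 0.375). Socs3 and Serpina3n overlapped between the arms. Socs3 stood at 2.34 to 4.85 CPM under oxaliplatin and 3.85 to 4.21 CPM under vehicle (log2 difference -0.10 ± 0.24). Serpina3n stood at 30.3 to 52.1 and 31.3 to 41.6 CPM (log2 difference 0.13 ± 0.21). Reads of Serpina3n may be shared with near-identical Serpina3 genes of its cluster, so its level is less certain than the others.

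The hypothalamus calls of the 4 genes were fragile although their directions were not. With limma-voom only Lrg1 kept an adjusted p under 0.05 (Lcn2 0.219, Cebpd 0.109, Il1r1 0.0840). Without vehicle mouse 1, without vehicle mouse 4 or without oxaliplatin mouse 4 none of the 4 kept it, with edgeR adjusted p-values from 0.0622 (Lrg1) to 0.342 (Lcn2). Across all leave-one-out fits the log2 differences stayed within 4.83 to 6.38 for Lcn2, 2.88 to 3.62 for Lrg1, 2.39 to 2.76 for Cebpd and 1.20 to 1.42 for Il1r1. In these 7 fits Lrg1 kept its call in 4, Lcn2 and Il1r1 in 2 each, and Cebpd in 1. The edgeR adjusted p of Cebpd reached 0.415. With no filter, and in a joint fit over 23 libraries, Lcn2 and Cebpd lost the call while Lrg1 and Il1r1 kept it. DESeq2 called 5 of the 9, adding Osmr at an adjusted p of 0.00356, where it called 262 of the 18941 genes tested.

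**Figure D2:**
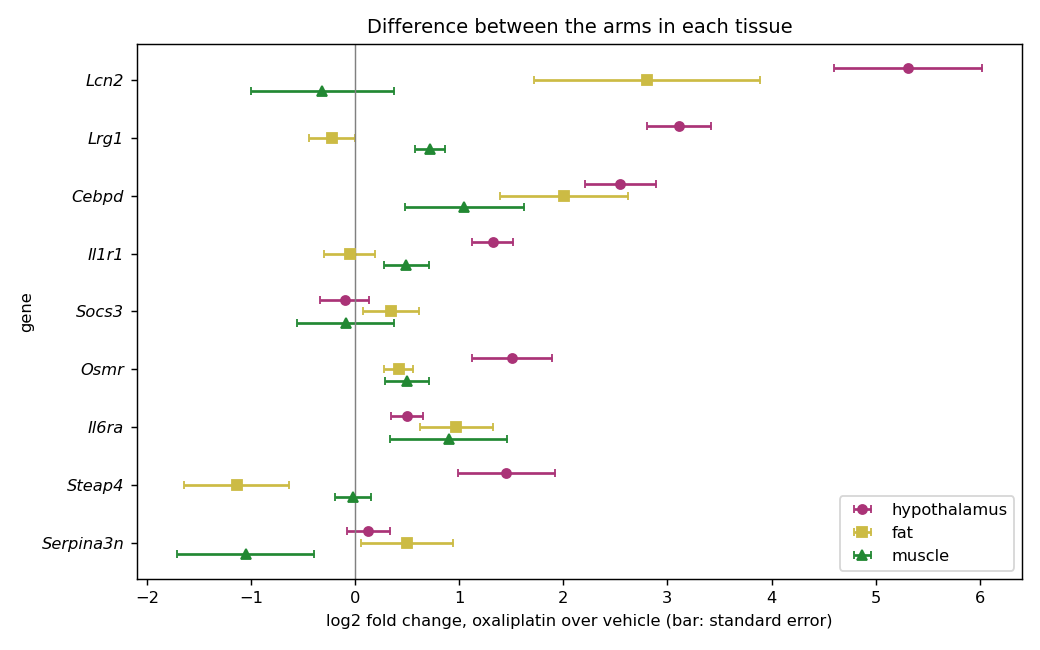
Log2 fold change of oxaliplatin over vehicle (x axis) for each of the 9 genes (y axis) in hypothalamus, fat and muscle, with standard errors as bars. Lcn2, Lrg1 and Cebpd lie farthest right in hypothalamus, at 5.31, 3.11 and 2.55, and Steap4 lies on opposite sides of 0 in hypothalamus (1.45) and fat (-1.14).

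Endothelial markers were higher in the same hypothalamus libraries. All 13 markers of the endothelial list had log2 differences above 0, with a median of 0.82, and 3 rose by edgeR (Flt1, Pecam1 and Ly6c1), beside 0.148% of all genes tested. Their summed level was 427 to 640 CPM in oxaliplatin mice and 271 to 280 CPM in vehicle mice, with oxaliplatin mouse 5, the lowest for Lcn2, Lrg1, Cebpd and Il1r1, also the lowest of its arm here. Pecam1, an adhesion molecule that defines endothelium, was at 31.8 to 56.5 CPM against 16.0 to 17.6 CPM. The part of endothelial cells in the higher Lcn2, Lrg1, Cebpd and Il1r1 was not tested. Of the pericyte and smooth muscle markers 2 of 10 rose (Abcc9 and Kcnj8), with sums of 299.9 to 386 CPM against 269 to 300.3 CPM.

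Markers of neutrophils, which store lipocalin 2, were low in hypothalamus, and their sum was no higher under oxaliplatin. The 8 measured summed to 3.50 to 6.23 CPM in oxaliplatin mice and 5.37 to 6.31 CPM in vehicle mice, and S100a8 and S100a9 stayed at or under 0.445 CPM in every library. The hypothalamus table, which lists genes with a summed count of at least 10, holds 8 of the 14 markers on the neutrophil list. Microglia markers gave 114 to 188 CPM against 182 to 208 CPM, astrocyte markers 3969 to 5331 CPM against 4782 to 5332 CPM, and macrophage markers 162 to 217 CPM against 190 to 249 CPM. In each of these 4 lists the highest oxaliplatin sum lay under the highest vehicle sum, and edgeR called no gene of them. All 10 microglia genes had log2 differences under 0, with a median of -0.52, and in 3 of them every oxaliplatin library lay under every vehicle one. At an unadjusted p under 0.05 there were 0 of 2 neutrophil, 5 of 10 microglia, 6 of 10 astrocyte and 2 of 12 macrophage genes tested, beside 10.2% of all genes tested. The 10 astrocyte genes were split, with 4 log2 differences above 0 and 6 under it (median -0.19). The part of neutrophils, microglia and astrocytes in the results above was not tested.

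**Figure D3:**
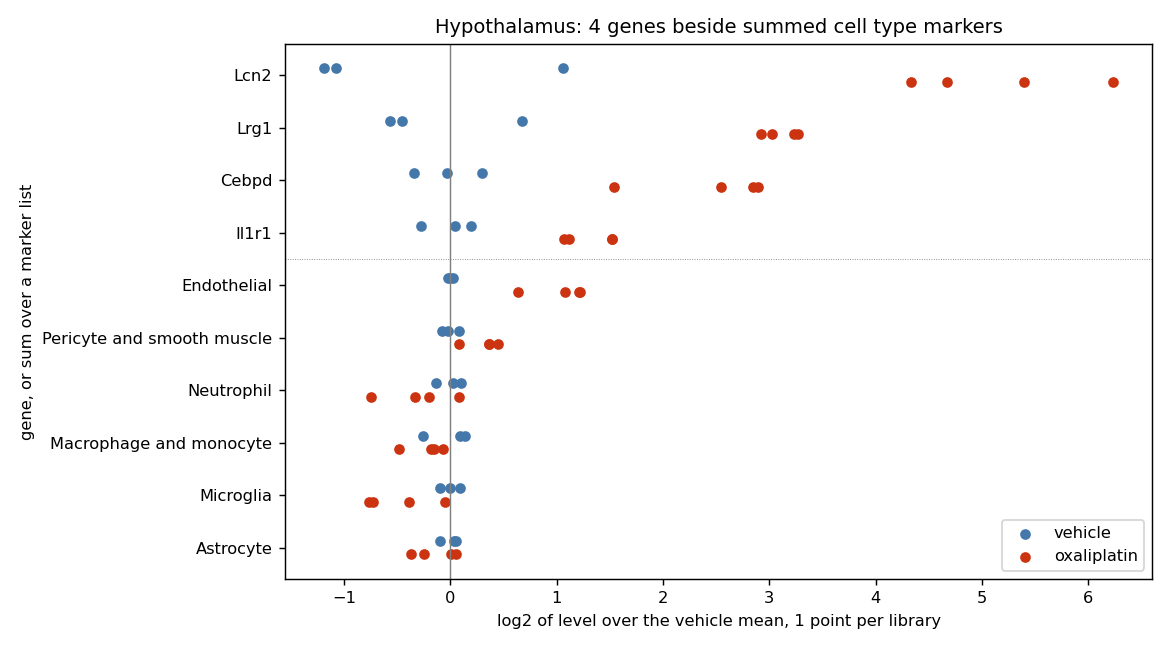
Log2 of the level over the vehicle mean in each hypothalamus library (x axis), for Lcn2, Lrg1, Cebpd and Il1r1 and for the summed CPM of 6 cell type marker lists (y axis). The oxaliplatin points of the 4 genes and of the endothelial sum lie to the right of all vehicle points, while those of the neutrophil, macrophage, microglia and astrocyte sums do not.

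In subcutaneous fat no gene was called: 0% of the 19870 genes tested passed, so none of the 9 did, although 5178 genes had an unadjusted edgeR p under 0.05 and DESeq2 called 2434. At an unadjusted p under 0.05 there were 4 of the 9 (Lcn2, Cebpd, Osmr and Il6ra), beside 26.1% of genes tested, and DESeq2 called Lcn2 (adjusted p = 0.0246) and Cebpd (adjusted p = 0.00904) while limma-voom called 0. In 1 of the 9, Il6ra, the groups did not overlap, with oxaliplatin higher, as in 10.3% of genes tested. Of the log2 differences 6 were above 0, with a median of 0.42 beside 0.03 over all genes.

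Lcn2 in fat spanned a wide range in both arms. It was at 47.0, 15.8, 9.57 and 5.06 CPM in oxaliplatin mice 2 to 5 and at 0.467, 6.64 and 1.16 CPM in vehicle mice 1, 2 and 4. Only treated mouse 5 fell within the vehicle range. The log2 difference was 2.80 ± 1.09 (edgeR adjusted p = 0.167), and leaving out 1 library gave from 1.89 (without oxaliplatin mouse 2) to 4.54 (without vehicle mouse 2). Vehicle mouse 2 had neutrophil markers that summed to 72.3 CPM against 10.4 and 26.1 CPM in the other vehicle fat libraries. In the oxaliplatin arm the same sum was 14.0, 16.4, 32.7 and 128 CPM in mice 2 to 5, the reverse of their order for Lcn2. Of the 8 neutrophil markers tested in fat, 6 were above 0 and 2 under it, with a median log2 difference of 1.80 beside 0.03 over all genes. In 4 of them every oxaliplatin library lay above every vehicle one, as in 10.3% of genes tested. At an unadjusted edgeR p under 0.05 there were 4, beside 26.1% of genes tested. The part of neutrophils in the fat levels of Lcn2 was not tested.

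Cebpd in fat was at 272, 268, 163 and 52.6 CPM in oxaliplatin mice 2 to 5 and at 39.4, 27.6 and 74.1 CPM in vehicle mice 1, 2 and 4 (log2 difference 2.01 ± 0.61; edgeR adjusted p = 0.128). Of the vehicle libraries only mouse 4, which carried muscle fibre RNA, lay above treated mouse 5. Without vehicle mouse 4 the log2 difference of Cebpd was 2.515 ± 0.70 (edgeR adjusted p = 0.255). Il6ra was at 225, 199, 109 and 81.2 CPM against 76.4, 77.6 and 80.5 CPM, so mouse 5 was barely above vehicle (log2 difference 0.97 ± 0.35; edgeR adjusted p = 0.153). Osmr was at 72.7 to 90.3 CPM against 55.1 to 73.1 CPM (log2 difference 0.42 ± 0.14; edgeR adjusted p = 0.139). For each of these, oxaliplatin mouse 5 was the lowest treated library.

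Steap4 went the other way in fat. It was at 136, 116, 124 and 452 CPM in oxaliplatin mice 2 to 5 and at 428, 484 and 455 CPM in vehicle mice 1, 2 and 4. Mouse 5 lay inside the vehicle range and the other 3 far under it, which gave a log2 difference of -1.14 ± 0.50 (edgeR adjusted p = 0.201). Without mouse 5 the value was -1.86 (adjusted p = 0.000491), and Cebpd (2.32; adjusted p = 0.0104), Il6ra (1.18; adjusted p = 0.0157) and Osmr (0.49; adjusted p = 0.0298) were then also called by edgeR, among 4969 genes in all.

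Lrg1, the most abundant of the 9 per kilobase in fat, did not follow hypothalamus. It was at 258, 161, 235 and 271 CPM in oxaliplatin mice 2 to 5 against 210, 292 and 305 CPM in vehicle mice 1, 2 and 4 (log2 difference -0.22 ± 0.22). Il1r1 (36.7 to 68.1 against 38.2 to 58.6 CPM), Socs3 (17.0 to 18.9 against 9.08 to 21.4 CPM) and Serpina3n (119 to 463 against 143 to 209 CPM) all overlapped between the arms. For Socs3 the overlap rested on vehicle mouse 4, the library that carried muscle fibre RNA, at 21.4 CPM. Without vehicle mouse 4 its log2 difference was 0.76 ± 0.19 (edgeR adjusted p = 0.246), against 0.35 ± 0.27 with all libraries.

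The order of same-numbered mice was compared between tissues, and 2 of the 9 genes kept it between fat and hypothalamus. Among oxaliplatin mice 2 to 5, Lcn2 and Cebpd had the same order in fat and in hypothalamus, with mouse 2 highest, then 3, then 4, then 5. No gene of the 9 kept its order between muscle and either other tissue. In muscle, Lcn2 and Cebpd had the reverse order, with mouse 5 highest, then 4, then 3, then 2. The share of all genes that keep an order between tissues was not counted. These orders rest on 4 mice, and the labels do not say that a number marks the same animal in every tissue.

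**Figure D4:**
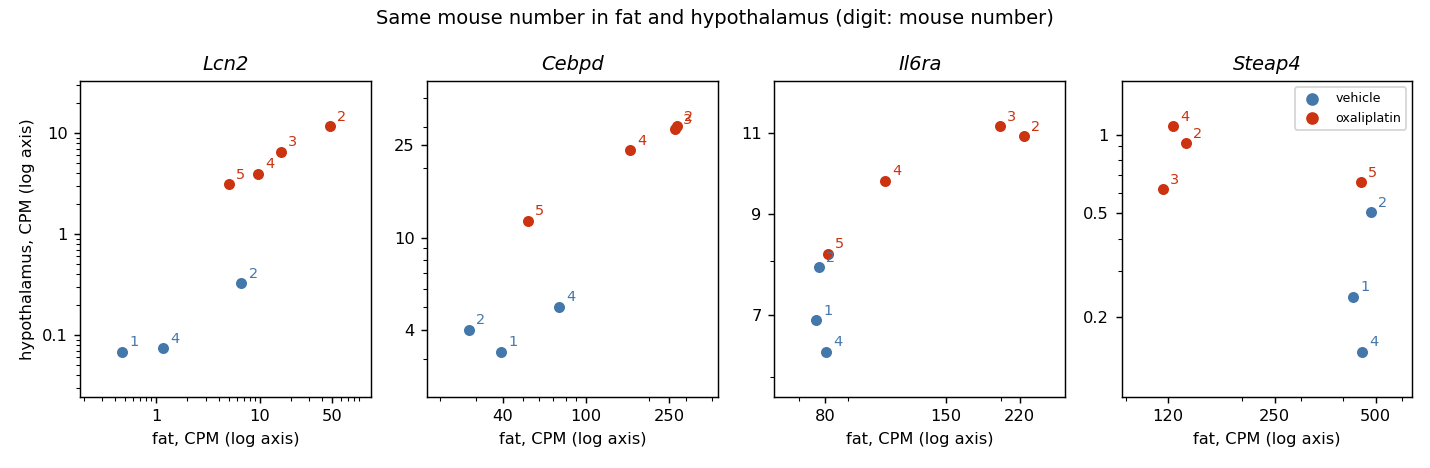
CPM in hypothalamus (y axis, log) against CPM in fat (x axis, log) for libraries with the same mouse number, for Lcn2, Cebpd, Il6ra and Steap4, with vehicle in blue and oxaliplatin in red. Lcn2 and Cebpd descend from mouse 2 to mouse 5 on both axes, and mouse 5 sits among the vehicle mice for Steap4 in fat.

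In muscle edgeR called none of the 9, where 0.163% of the 14737 genes tested were called (24). At an unadjusted p under 0.05 there were 3 of the 9 (Lrg1, Il1r1 and Osmr), beside 9.59% of genes tested. Of the 9, limma-voom called 0 and DESeq2 called Lrg1 (adjusted p = 0.00117), where DESeq2 called 254 of the 14737 genes tested. In Lrg1 and Il1r1 the groups did not overlap, with oxaliplatin higher, as in 2.18% of genes tested, and mouse 5 was the highest library of both, so they would overlap with it set to vehicle. The median log2 difference was 0.49 beside -0.01 over all genes, with 5 of 9 above 0.

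Lrg1 in muscle was at 34.9, 35.8, 32.7, 25.3 and 37.5 CPM in oxaliplatin mice 1 to 5 and at 16.1, 22.5, 22.1 and 19.9 CPM in vehicle mice 1 to 4. The lowest treated library lay just above the highest vehicle one. The log2 difference was 0.72 ± 0.14 (edgeR adjusted p = 0.0660), 0.67 without mouse 5 and 0.44 with mouse 5 set to vehicle. Endothelial markers summed to 430 to 474 CPM in oxaliplatin muscle and 308 to 412 CPM in vehicle muscle, and their part in the Lrg1 difference was not tested.

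Lcn2 in muscle split the vehicle arm. It was at 5.18, 2.14, 2.55, 2.56 and 5.20 CPM in oxaliplatin mice 1 to 5, and at 0.985, 0.774, 8.66 and 7.04 CPM in vehicle mice 1 to 4. The high vehicle libraries, mice 3 and 4, were the same that carried neutrophil markers. The log2 difference was -0.31 ± 0.69 over all libraries (edgeR adjusted p = 0.961), -0.50 with mouse 5 left out and -0.55 with it moved to vehicle. Leaving out vehicle mice 3 and 4 gave 2.01 ± 0.44 (edgeR adjusted p = 0.0942), a setting chosen after the values were seen. Socs3 moved from -0.09 to 1.27 and Serpina3n from -1.05 to 0.99 in that setting, and vehicle mouse 4 alone held Serpina3n at 10.2 CPM against 0.896 to 2.73 CPM in the other 3. Neither passed the threshold in any of these fits. Without mouse 5 and with it set to vehicle, Socs3 was at -0.13 in both fits, and Serpina3n at -1.18 and -1.07.

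Cebpd and Il6ra in muscle depended on the library whose labels conflict. Cebpd was at 5.09, 1.90, 3.35, 4.64 and 11.9 CPM in oxaliplatin mice 1 to 5 and at 0.697, 4.28, 3.32 and 2.18 CPM in vehicle mice 1 to 4. Its log2 difference was 1.05 ± 0.57, 0.52 without mouse 5 and -0.26 with mouse 5 set to vehicle. Il6ra was at 14.4 CPM in mouse 5 and at 2.27 to 5.18 CPM in the other 4 treated mice, beside 2.30 to 3.59 CPM in vehicle mice. Its log2 difference was 0.90 ± 0.56, 0.11 without mouse 5 and -0.73 with it set to vehicle. Osmr (0.50, 0.45 and 0.30 in these 3 settings) and Il1r1 (0.49, 0.43 and 0.25) kept their direction, and Steap4 stayed at -0.02 in all 3.

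Setting the tissues against each other, the oxaliplatin effect on Lrg1 was larger in hypothalamus than in fat by 3.33 ± 0.38 (edgeR interaction, adjusted p = 0.0065) and than in muscle by 2.35 ± 0.30 (adjusted p = 0.0042), where 0.311% and 0.0689% of genes tested were called. With muscle mouse 5 set to vehicle the second value was 2.63 ± 0.39 and missed the threshold (edgeR adjusted p = 0.0541), while the call was kept without that mouse (edgeR adjusted p = 0.0086). Lrg1 was the 1 gene of the 9 that edgeR called in either contrast. DESeq2 called Lrg1, Il1r1 and Steap4 for hypothalamus against fat, and Lcn2 and Lrg1 for hypothalamus against muscle. For hypothalamus against fat it called 1273 of the 20892 genes tested, and its totals for the other contrasts stand in the closing section. Since these contrasts between tissues are made of those that chose the genes, the calls in them are a description too. For Lcn2 the hypothalamus exceeded fat by 2.52 ± 1.43 (edgeR adjusted p = 0.350) and muscle by 5.56 ± 1.15 (edgeR adjusted p = 0.0795), or by 5.75 without muscle mouse 5 and 5.80 with it set to vehicle. Steap4, with opposite signs in hypothalamus and fat, differed by 2.58 ± 0.78 between them (edgeR adjusted p = 0.123). For hypothalamus minus fat, Cebpd gave 0.54 ± 0.70 (edgeR adjusted p = 0.706) and Il6ra -0.46 ± 0.38 (edgeR adjusted p = 0.527). A larger effect in hypothalamus than in fat was thus not shown for these genes. Of the 9 values for hypothalamus minus fat, 6 were above 0 and 3 under it. Between fat and muscle edgeR called none of the 9, with 3 at an unadjusted p under 0.05 (Lcn2, Lrg1 and Steap4) beside 17% of genes tested, while DESeq2 called Lrg1 and limma-voom none. Of the 18862 genes tested there, 0.239% were called.

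The cytokine ligands and signalling genes around the 9 showed few calls. Over all genes tested, edgeR called 0.163% in muscle, 0% in fat and 0.148% in hypothalamus. An unadjusted p under 0.05 was met by 9.59%, 26.1% and 10.2% of them. The counts of each list below stand beside these shares. Of the interleukin 6 family and its receptors, edgeR tested 7 (muscle), 10 (fat) and 9 (hypothalamus) genes and called none, with 2, 4 and 2 at an unadjusted p under 0.05. In hypothalamus Lifr, a receptor subunit for leukaemia inhibitory factor, was at 121 against 84.3 CPM (log2 difference 0.53 ± 0.15). In fat Clcf1, a ligand of the family, was at 8.48 against 3.70 CPM (1.19 ± 0.17; edgeR adjusted p = 0.0751). Of the JAK-STAT3 genes, 14, 15 and 15 were tested and none called, with 4, 4 and 2 at an unadjusted p under 0.05. Those included Jak2 in muscle, at 12.8 against 20.3 CPM with mouse 5 counted as oxaliplatin, and Socs2, a relative of Socs3, in fat, at 88.5 against 14.2 CPM (2.63 ± 0.66; edgeR adjusted p = 0.116).

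Of the interleukin 1 and Toll-like receptor genes, 14, 17 and 13 were tested in muscle, fat and hypothalamus and none called, with 0, 3 and 0 at an unadjusted p under 0.05. Lbp, which carries bacterial lipopolysaccharide to its receptor, was at 33.4 against 87.6 CPM in fat (log2 difference -1.39 ± 0.20; edgeR adjusted p = 0.0751). Of the TNF and NF-kB genes, 16, 18 and 17 were tested and none called, with 0, 5 and 3 at an unadjusted p under 0.05. Of all genes tested, 9.59%, 26.1% and 10.2% met that p. Nfkbia, the NF-kB inhibitor that NF-kB itself induces, was at 35.2 against 18.0 CPM in hypothalamus (0.97 ± 0.22) and at 137 against 47.9 CPM in fat (1.51 ± 0.34). In fat 17 of the 18 had log2 differences above 0, with a median of 0.40 beside 0.03 over all genes.

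Among the products, 11 other acute phase genes were tested in hypothalamus and 1 rose, beside 0.148% of all genes tested. Vwf, the endothelial clotting protein von Willebrand factor, went from 30.0 ± 3.37 CPM (SD, n = 3) to 236 ± 77.0 CPM (SD, n = 4), a log2 difference of 2.97 ± 0.30 (edgeR adjusted p = 0.0193). A2m, a broad protease inhibitor, was at 66.0 against 14.6 CPM (2.18 ± 0.58; edgeR adjusted p = 0.350). In muscle and fat 10 and 18 were tested and none called. At an unadjusted p under 0.05 there were 1 and 9, beside 9.59% and 26.1% of all genes tested.

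Of genes that STAT3 and cytokines induce, edgeR called 2 of 15 in muscle, 0 of 17 in fat and 0 of 17 in hypothalamus. Over all genes tested the called shares were 0.163%, 0% and 0.148%. At an unadjusted p under 0.05 there were 5, 6 and 10, beside 9.59%, 26.1% and 10.2% of all genes tested. The muscle calls were Ccl2, a monocyte-attracting chemokine, from 0.435 to 2.23 CPM (2.31 ± 0.33; edgeR adjusted p = 0.0211), and Icam1, a leukocyte adhesion molecule, from 2.81 to 8.62 CPM (1.61 ± 0.25; edgeR adjusted p = 0.0407). With muscle mouse 5 set to vehicle no gene of the tissue was called. In hypothalamus 14 of 17 were above 0, including Icam1 (7.86 against 2.59 CPM), Ch25h (2.37 against 0.382 CPM; 2.62 ± 0.47; edgeR adjusted p = 0.0980) and Maff (11.4 against 1.72 CPM). Of the C/EBP family 7 were tested in each tissue and none called, with 0, 3 and 1 at an unadjusted p under 0.05. Cebpb, the closest relative of Cebpd in the acute phase, was at 9.31 against 6.46 CPM in hypothalamus (0.53 ± 0.22), and Cebpa, the adipocyte regulator, was at 487 against 1030.4 CPM in fat (-1.08 ± 0.41).

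The genes on which lipocalin 2 and Lrg1 act were examined as well. Of the Lcn2 receptors and iron genes 14, 16 and 18 were tested and none called, with 0, 6 and 4 at an unadjusted p under 0.05. Of all genes tested in muscle, fat and hypothalamus, 9.59%, 26.1% and 10.2% met that p. In hypothalamus Slc22a17, a lipocalin 2 receptor, was at 755 against 844 CPM (log2 difference -0.16; edgeR adjusted p = 0.570), and Mc4r, the melanocortin receptor of appetite circuits, was at 2.69 against 2.35 CPM (0.20; edgeR adjusted p = 0.774). Of the TGF-beta receptor genes around Lrg1, 2 of 20 rose in hypothalamus, beside 0.148% of all genes tested. They were Eng, the endothelial co-receptor endoglin, from 24.6 ± 1.05 to 58.3 ± 8.09 CPM (1.25 ± 0.12; edgeR adjusted p = 0.00738), and Acvrl1, its partner receptor ALK1, from 14.2 to 29.2 CPM (1.04 ± 0.15; edgeR adjusted p = 0.0331). Both are endothelial genes and moved with the endothelial markers described above. In muscle and fat 19 and 20 were tested and none called, with 4 and 7 at an unadjusted p under 0.05.

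Glucocorticoid-induced genes were also counted, since Cebpd and Lcn2 respond to these hormones as well as to cytokines. None was called by edgeR in muscle (21 tested), fat (20) or hypothalamus (21), with 9, 15 and 19 at an unadjusted p under 0.05, beside 9.59%, 26.1% and 10.2% of all genes tested. Their log2 differences were above 0 in 19, 18 and 20 of them, with medians of 0.55, 0.95 and 0.97 beside -0.01, 0.03 and 0.01 over all genes. In hypothalamus they included Ddit4, at 99.9 against 33.9 CPM (1.56 ± 0.29; edgeR adjusted p = 0.172). Cdkn1a, also a target of p53, was at 164 against 13.2 CPM in fat (3.63 ± 0.47; edgeR adjusted p = 0.0751). The part of glucocorticoid signalling in the levels of Cebpd and Lcn2 was not tested.

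The nearest patterns were sought for Lcn2, Lrg1 and Cebpd by Pearson's r of log2 CPM, as a description over libraries that share the split between the arms. Over the 7 hypothalamus libraries and 13941 genes, Lcn2 lay closest to Fam162a (r = 0.992), Bcl6b (0.988) and Tmem252 (0.987). Lrg1 lay closest to Tedc1 (0.976), Eng (0.975) and Fli1 (0.973), and Cebpd to Alox5 (0.996), Wfdc1 (0.995) and Slc2a1 (0.994), the glucose transporter of the blood-brain barrier. Among the 9, Lcn2 had r = 0.986 with Lrg1 and 0.957 with Cebpd, but -0.08 with Socs3 and 0.201 with Serpina3n.

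Over all 23 libraries, each set against the vehicle mean of its tissue, the neighbours changed. Lrg1 was closest to Eng (r = 0.945), Ly6c1 (0.937) and Vwf (0.917), which are endothelial genes, over 11866 genes. Cebpd was closest to Zbtb16 (0.914), Arrdc2 (0.907) and Depp1 (0.905), and Lcn2 to Map3k6 (0.876), Pglyrp1 (0.866) and Slc2a1 (0.856). Eng in fat was at 148 ± 10.4 CPM under oxaliplatin and 150 ± 9.18 CPM under vehicle. The log2 differences in fat were -0.02 ± 0.11 for Eng, 0.13 ± 0.17 for Ly6c1 and 0.45 ± 0.17 for Vwf, beside -0.22 ± 0.22 for Lrg1. Of the 12 endothelial markers tested in fat, 10 were above 0, with a median of 0.23 beside 0.03 over all genes. The part of endothelial cells in the pattern of Lrg1 was not tested.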

How the data were processed

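Expression was measured by RNA-seq in 23 libraries. The deposited values are expected counts per gene made by the authors in Partek from reads aligned with STAR 2.5.1a, per the submitters' processing notes, which also name DESeq2; 41.4% to 49.1% of all values in a table are not whole, and all were rounded. The labels name no genome build, counting settings or use of strand; gene starts in the files equal those of GENCODE M21 (GRCm38). Each table holds genes with a summed count of at least 10.

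Genes were filtered with filterByExpr (minimum count 10, minimum total 15), scaled by TMM and tested with edgeR 4.0.16 (robust quasi-likelihood F test, R 4.3.3), 1 fit per tissue, with Benjamini-Hochberg adjustment over all genes tested and a threshold of 0.05. Differences between tissues were interaction terms. SE is the log2 difference over the square root of F. The 9 genes, the pathway lists and the marker lists were chosen with earlier results of these data known. Named pathway genes were, for each list and tissue, up to 3 of smallest p and any called, from which a selection is printed; Slc22a17, Mc4r and the single marker genes fall outside this rule and were picked after their values were seen. Pattern neighbours had a mean of at least 1 CPM. Alternatives were DESeq2 1.42.0, limma-voom 3.58.1, other filters and scalings, a block, a joint fit, leaving out each library, and moving muscle mouse 5. Scripts were tested on simulated counts. No 2 libraries of a group agreed within sampling noise (lowest chi-square per degree of freedom 6.75 over 34 pairs). Libraries of a group carry different mouse numbers; the labels name no cage or batch. Counting intervals cover counting error only.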

Additional observations from a re-analysis of the deposited data

Results flagged for a closer look

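In 4 of 36 groups of 4 or 5 libraries, 1 library stood apart from the rest of its group by a gap test, which chance does in about 1 in 20 groups. Among oxaliplatin fat libraries, mouse 5 was lowest for Osmr at 72.7 CPM and highest for Steap4 at 452 CPM, and mouse 2 was lowest for Socs3 at 17.0 CPM, where the other 3 libraries lay between 18.8 and 18.9 CPM. Among oxaliplatin muscle libraries, mouse 5, whose labels conflict, was highest for Il6ra at 14.4 CPM.

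The oxaliplatin effect on Lrg1 differed between tissues by the edgeR interaction test, by 3.33 on the log2 scale between hypothalamus and fat and by 2.35 between hypothalamus and muscle. The genes were chosen with these contrasts known.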

How the results depend on the processing

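Over the 9 genes and all comparisons, 1090 of 1169 alternative values kept their direction where called and their side of the threshold, 32 lost a call, 24 gained one, 23 moved by more than the spread and none reversed a called value. Counts of genes called depended more on the settings. With DESeq2 they were 254 in muscle, 2434 in fat, 262 in hypothalamus, 1273 for hypothalamus minus fat, 195 for hypothalamus minus muscle and 804 for fat minus muscle, beside 24, 0, 28, 65, 12 and 45 with edgeR. With limma-voom they were 13 in muscle, 11 in hypothalamus and 104 for hypothalamus minus fat, and with the animal as a random effect 264 for hypothalamus minus fat and 14 for fat minus muscle. No filter gave 42 in muscle, and a mean of at least 1 CPM gave 122 for hypothalamus minus fat. A joint fit over 23 libraries gave 91 in muscle, 2909 in fat and 55 in hypothalamus. With the mouse number as a replicate block, 3 (muscle), 0 (fat) and 37 (hypothalamus) were called, and Lrg1 (2.95; edgeR adjusted p = 0.0505) and Il1r1 (1.44; edgeR adjusted p = 0.140) were not among the last. The arms share only these numbers, not animals, and deviations of same-numbered libraries had correlations from -0.28 to 0.17. With muscle mouse 5 set to vehicle, edgeR called 0 in muscle (701 at an unadjusted p under 0.05), 0 for hypothalamus minus muscle and 13 for fat minus muscle.

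Leaving out 1 library gave 2 to 17 in muscle, 0 to 4969 in fat, 0 to 655 in hypothalamus, 3 to 3151 for hypothalamus minus fat, 2 to 110 for hypothalamus minus muscle, 14 to 1626 for fat minus muscle and 12758 to 14717 for vehicle fat against vehicle hypothalamus (14032 in full). The highest fat and hypothalamus counts came without oxaliplatin mouse 5, and the hypothalamus count was 0 without vehicle mouse 4. Upper quartile scaling moved the median of all genes in the vehicle contrast from 0.07 to 0.36, with all 9 genes still higher in fat and 8759 of 14085 calls higher. The causes were not tested. At 2 to 9 counts in a vehicle library, depth limits Lcn2 in hypothalamus most.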
